A study of Homo sapiens with 3 samples.

Results

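The genes described here are 10 subunits of cytokine receptors, led by IL13RA2, in a human hepatocellular carcinoma (HCC) line and its metastatic subclones. They were chosen by gene symbol with the measured values of these libraries in view, and they are 10 of the 16149 genes listed in at least 1 library. IL13RA2 and IL7R stand in the set because of their ratios between libraries, so their levels are a description and carry no test.

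The study made 1 mRNA sequencing library from each of 3 cell strains, all of the HCCLM3 line and grown in DMEM. According to the labels, the parent had a low metastasis ability, subclone1 a higher one directed to lung, and subclone2 a dual one directed to lung and to celiac lymph node. The methods of the study instead give the parental cells, which carry red fluorescent protein, a high metastatic potential, and describe the subclones as lines grown from single cells of xenograft metastases in nude mice. Read this way a subclone is 1 clone, but which of the established lines were sequenced is not given. The files hold RPKM, read counts scaled by gene length and by library size, for 14703 to 14931 genes in a library. Whole reads could be recovered from the RPKM, with totals of 4488825 reads in the parent, 4609696 in subclone1 and 4725150 in subclone2. With 1 library in a group no difference between cell lines could be tested, and every interval given is an exact 95% interval that covers counting error of reads and no variation between cultures. A gene is called higher or lower beyond counting error where the interval of its ratio between 2 libraries leaves out 1, a description of those libraries. RNA per cell and the share of cells that make it cannot be told apart in such bulk libraries.

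The label of a liver cell was compared with marker genes. KRT8 and KRT18, the keratins of simple epithelia, stood at 1614 to 1742 and 953 to 1075 RPKM, and HNF4A, a hepatocyte transcription factor, at 11.7 to 16.0 RPKM. The secreted products of mature hepatocytes differed among themselves. TTR had at most 2 reads, APOA1 at most 3 and SERPINA1 at most 4, and AFP stood at 2.41 to 4.27 RPKM. ALB, which encodes albumin, was 2.46 RPKM in the parent, 49.5 RPKM in subclone1 and 68.8 RPKM in subclone2. APOB was 0.300, 1.23 and 4.17 RPKM in the same order. Among 10 leukocyte markers 5 were listed, with summed levels of 1.88, 3.14 and 2.71 RPKM. PTPRC, the defining leukocyte gene, had 2 reads in the parent and 0 in both subclones. Of 8 fibroblast markers 5 were listed, and their sums of 15.7, 31.1 and 24.3 RPKM were mostly LUM (10.1, 24.0 and 21.0 RPKM), with COL3A1 at 4.42, 2.21 and 0.463 RPKM, DCN at 0.773, 4.42 and 2.75 RPKM and COL1A2 at 1 read or none. All 5 endothelial markers were listed, with sums of 5.11, 11.9 and 7.60 RPKM, mostly PECAM1 (3.33, 9.81 and 4.46 RPKM) and KDR (1.36, 1.93 and 3.08 RPKM), while CDH5 had at most 1 read. The part of these marker genes in the results below was not tested.

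Cytokine receptors of the type I and type II families have no kinase of their own. A cytokine brings together a specific chain and a shared chain, the Janus kinases bound to their tails phosphorylate the receptor, and STAT proteins then dock, are phosphorylated and move to the nucleus. The receptors of interleukin-1 work differently, through an intracellular TIR domain that recruits MYD88. In liver, signals through the shared chain gp130 are known for driving the acute-phase response of hepatocytes.

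The study quantified IL13RA2 by real-time PCR with the primer pair shown here, because it marks the stretch of the mRNA that such a measurement reads. Each primer is written 5′ to 3′. In the third line, read from the GENCODE transcript IL13RA2-201, capitals mark the parts covered by the primers.
IL13RA2 forward: gggcattgaagcgaagataca
IL13RA2 reverse: gcccaggaactttgaacttctg
IL13RA2 product: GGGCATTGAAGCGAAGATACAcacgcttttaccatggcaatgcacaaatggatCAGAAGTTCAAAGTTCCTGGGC
The product has 75 bases at chrX:115014450-115014524 (GRCh38, minus strand). Both primers lie inside 1 exon, exon 4 of 10 in IL13RA2-201 and exon 5 of 11 in IL13RA2-202, and the pair matched transcripts of no other gene. The length behind the RPKM of IL13RA2 was 1376 bases, close to the 1371 bases of IL13RA2-201.

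RefSeq promoters (GRCh38.p14, 250 bases before the start of transcription and 50 after it) were held for 9 of the 10 genes, all but IL13RA2. The promoters of IL7R and IL10RB are printed, since these 2 genes differed most from the parent in subclone1 among those with a promoter sequence. Capitals mark matches to the motifs searched.
IL7R, chr5:35856641-35856940, plus strand: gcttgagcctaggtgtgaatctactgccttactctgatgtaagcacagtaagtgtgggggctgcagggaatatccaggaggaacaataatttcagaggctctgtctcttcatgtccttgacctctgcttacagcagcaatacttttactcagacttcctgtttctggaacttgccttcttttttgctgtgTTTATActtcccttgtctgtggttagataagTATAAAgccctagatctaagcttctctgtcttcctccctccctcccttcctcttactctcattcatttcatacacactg
IL10RB, chr21:33266117-33266416, plus strand: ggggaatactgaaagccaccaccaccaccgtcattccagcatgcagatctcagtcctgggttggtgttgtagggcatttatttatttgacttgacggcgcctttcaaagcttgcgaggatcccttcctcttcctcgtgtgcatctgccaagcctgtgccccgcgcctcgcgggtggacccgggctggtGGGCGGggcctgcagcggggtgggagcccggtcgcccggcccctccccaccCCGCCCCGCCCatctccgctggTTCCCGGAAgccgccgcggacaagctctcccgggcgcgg
Motifs were searched as letters on both strands. The TATA box was searched as TATAAA, which 11.5% of 35116 promoters of the same length hold. The GC box was searched as GGGCGG, held by 45.0% of them. Of the STAT-type spacings, TTCNNNGAA was held by 7.66% and TTCNNNNGAA by 6.44%. For AP-1 the letters were TGANTCA, held by 7.71%. For the E-box they were CACGTG, held by 7.26%. The IL7R promoter held TATAAA starting 29 bases before the start of transcription, a second copy on the other strand 60 bases before it, and 0 CpG. The IL10RB promoter held 25 CpG, against a median of 14 over all promoters, 3 GC boxes, of which the last 2 overlap by 1 base, and TTCCCGGAA, a TTCNNNGAA match, starting 12 bases after the start. The other 7 promoters held from 2 CpG in LIFR to 42 in IL4R. IL13RA1, IL4R, IL6ST and OSMR held 4 GC boxes each, LIFR held TTCCTTGAA, OSMR and IL6R held a TGANTCA match, and IL1R1 held none of the 6 motifs. A match is a description of letters and does not show binding.

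IL13RA2, a chain that binds IL-13 with high affinity, has a short cytoplasmic tail and is known as a decoy receptor. The gene (Entrez 3598) lies at chrX:115003975-115019977 on the minus strand of GRCh38. It was the most abundant of the 10 genes in the parent, at 103 RPKM (635 reads, with an interval that ended at 111), and was lower in both subclones. Its level was 47.1 RPKM in subclone1 (41.9 to 52.8, 299 reads) and 39.1 RPKM in subclone2 (34.4 to 44.2, 254 reads). The intervals of both subclones lay below that of the parent. The RPKM ratio to the parent was 0.459 in subclone1 (0.398 to 0.527) and 0.380 in subclone2 (0.327 to 0.440). On the scale of log2(RPKM + 0.1) these were differences of -1.12 and -1.39, at percentiles 1.32 and 1.06 of the 11370 genes with a mean of at least 1 RPKM. The ratio of subclone2 to subclone1 was 0.829 (0.698 to 0.983). On the deposited RPKM IL13RA2 was thus lowest in subclone2, with an interval that ended close to 1, and the gap between the subclones was small beside that to the parent. The log2 ratio between the subclones, -0.27, shrank to -0.15 after division by ACTB or GAPDH, so their order depends on the scaling. In level it went from percentile 94.6 of those genes in the parent to 86.3 in subclone1 and 82.6 in subclone2.

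IL13RA1, the signalling IL-13 chain that pairs with IL4R, lies on the same chromosome at chrX:118727572-118794539 on the plus strand (GRCh38). It differed from IL13RA2 in direction. Its level was 69.8 RPKM in the parent (1255 reads), 87.7 RPKM in subclone1 (1619 reads) and 88.2 RPKM in subclone2 (1670 reads), so that the subclones were alike and both above the parent. The ratio to the parent was 1.26 in each subclone, with intervals from 1.17 to 1.35 and from 1.17 to 1.36. Between the subclones it was 1.01 (0.939 to 1.08), not separable at this depth. The order of the IL-13 chains was therefore not the same in the libraries. Per length, IL13RA2 was 1.47 times IL13RA1 in the parent (1.34 to 1.62), 0.538 times in subclone1 (0.474 to 0.609) and 0.443 times in subclone2 (0.387 to 0.506).

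IL4R, the chain shared by the receptors of IL-4 and IL-13, lies at chr16:27313668-27364778 on the plus strand (GRCh38). It was 13.1 RPKM in the parent (216 reads), 13.3 RPKM in subclone1 (226 reads) and 17.0 RPKM in subclone2 (296 reads). Subclone2 was above the parent by a ratio of 1.30 (1.09 to 1.56) and above subclone1 by 1.28 (1.07 to 1.53), while subclone1 and the parent were not separable (1.02, 0.842 to 1.23). In each library IL13RA1 exceeded IL4R per length, by 5.33-fold in the parent, 6.58-fold in subclone1 and 5.18-fold in subclone2. IL2RG, the common gamma chain that completes the other IL-4 receptor and also serves IL7R, was 2.57, 3.89 and 7.60 RPKM (18, 28 and 56 reads). It was higher in subclone2 than in the parent by 2.96-fold (1.71 to 5.34).

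**Figure D1:**
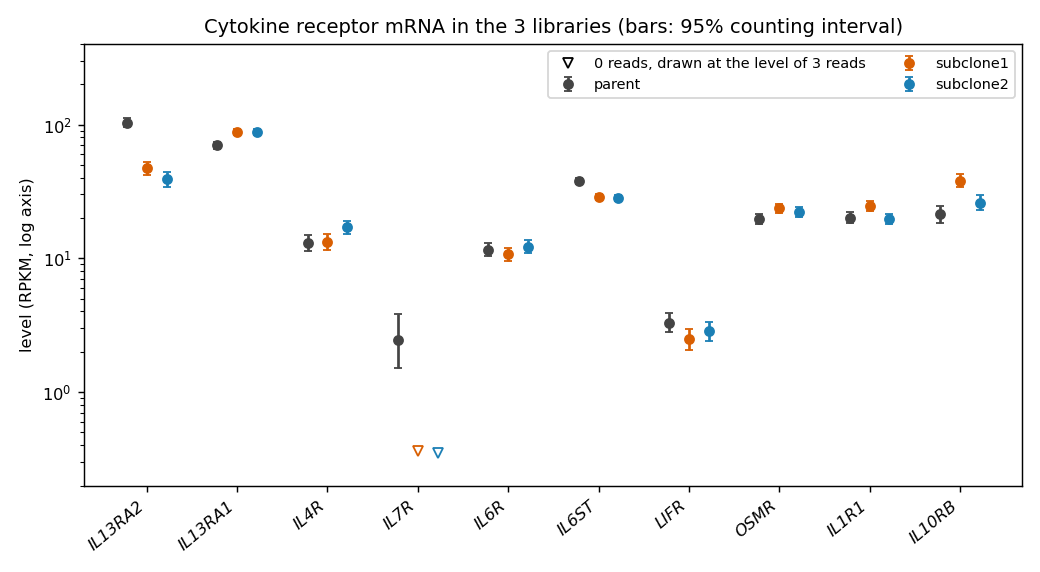
Level of the 10 receptor genes in each library, in RPKM on a log axis, with exact 95% counting intervals and open triangles at the level of 3 reads where a gene had 0 reads. IL13RA2 stands above IL13RA1 in the parent and below it in both subclones, and IL7R has reads in the parent only.

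IL7R, the specific chain of the IL-7 receptor, best known from developing lymphocytes, lies at chr5:35852695-35879603 on the plus strand (GRCh38). It was the lowest of the 10 genes in every library, though not separable from LIFR in the parent (1.34, 0.838 to 2.26). The parent held 2.46 RPKM from 20 reads, and the gene was listed in neither subclone. With 0 reads each subclone could still hold up to 3 reads, or 0.360 RPKM in subclone1 and 0.351 RPKM in subclone2. IL7R was thus at least 6.85-fold lower in subclone1 and at least 7.02-fold lower in subclone2, measured from that limit of 3 reads with the parent value held fixed. The exact intervals of the ratio, which are two-sided and allow for the error of both counts, give a looser limit and ended at 0.197 and 0.192. Its mean of 0.821 RPKM kept it out of the counts over genes of at least 1 RPKM. The length behind its RPKM, 1809 bases, was shorter than its longest GENCODE transcript of 4626 bases. Among the leukocyte markers, PTPRC had reads in the parent only, as IL7R did (2, 0 and 0 reads), while ITGAM had 11, 24 and 27 reads, LYZ 7, 7 and 10 and CD14 1, 8 and 0. CD3D, CD3E, MS4A1, CSF1R and NKG7 were in none of the 3 tables used here. IL7, its ligand, had 1 read in the parent, 15 in subclone1 and 14 in subclone2, and the intervals of its ratio to the parent began at 2.25 and 2.02. CRLF2, which pairs with IL7R in the receptor of TSLP, had 0, 4 and 1 reads.

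IL6ST encodes gp130, the signalling chain shared by IL-6, LIF, oncostatin M and related cytokines. The gene lies at chr5:55935095-55994993 on the minus strand (GRCh38). Its mRNA was at 37.9 RPKM in the parent (1543 reads), 28.7 RPKM in subclone1 (1200 reads) and 28.3 RPKM in subclone2 (1211 reads). Both subclones lay below the parent, with ratios of 0.757 (0.702 to 0.817) and 0.746 (0.691 to 0.804). They were not separable from each other (0.985, 0.908 to 1.07). Its depth makes this the most tightly measured of the lower genes, and neither ratio reached 2-fold.

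IL6R, the chain that binds IL-6 before gp130 joins, lies at chr1:154405193-154469450 on the plus strand (GRCh38). It was 11.6, 10.7 and 12.2 RPKM in the parent, subclone1 and subclone2 (309, 293 and 343 reads). No pair of libraries was separable at this depth. The ratios to the parent were 0.923 in subclone1 (0.784 to 1.09) and 1.05 in subclone2 (0.902 to 1.23). The ratio of gp130 to IL6R mRNA per length was 3.26 in the parent (2.89 to 3.70), 2.68 in subclone1 (2.35 to 3.05) and 2.31 in subclone2 (2.04 to 2.61).

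LIFR and OSMR are the chains that pair with gp130 for LIF and for oncostatin M. LIFR lies at chr5:38474963-38608354 on the minus strand and OSMR at chr5:38845858-38945596 on the plus strand (GRCh38), next to each other in the gene order. LIFR was 3.30, 2.47 and 2.85 RPKM in the parent, subclone1 and subclone2 (152, 117 and 138 reads). It was lower in subclone1 beyond counting error (0.750, 0.584 to 0.960), while the interval in subclone2 included 1 (0.862, 0.680 to 1.09). OSMR was 19.8, 23.6 and 22.3 RPKM in the same order (494, 605 and 585 reads). Its ratio was 1.19 in subclone1 (1.06 to 1.35) and 1.12 in subclone2, where the interval began at 0.996. The adjacent genes thus stood on opposite sides of the parent in subclone1. OSMR exceeded LIFR per length by 4.99 to 7.25-fold in the parent (interval), 9.55-fold in subclone1 (7.82 to 11.7) and 7.83-fold in subclone2 (6.49 to 9.49). Exons of OSMR overlap those of RICTOR on the other strand, and exons of LIFR overlap the antisense gene LIFR-AS1. Exons of IL4R, IL6ST and IL1R1 likewise overlap an antisense gene each, AC106739.1, AC008914.1 and IL1R1-AS1. Whether the counting used strand is not given, so reads of such pairs may be shared.

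The remaining partners of gp130 and OSMR had few reads. IL11RA had 4, 8 and 4 reads in the parent, subclone1 and subclone2, and IL31RA, which pairs with OSMR, had 7, 2 and 10. CNTFR had 1 read in subclone1 and 0 in the other libraries. IL27RA, which pairs with gp130 for IL-27, was 2.05, 1.80 and 2.21 RPKM (30, 27 and 34 reads), with no pair of libraries separable. The ligand LIF was 4.64, 6.78 and 6.45 RPKM, above the parent by 1.46-fold in subclone1 (1.10 to 1.96) and 1.39-fold in subclone2 (1.04 to 1.86). CLCF1, which signals through LIFR and CNTFR, was 14.4, 12.5 and 12.7 RPKM. IL6 was in none of the 3 tables used here, and OSM had 1 read, in subclone2.

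IL1R1, the signalling receptor of IL-1, lies at chr2:102064544-102179874 on the plus strand (GRCh38). It was 20.1 RPKM in the parent (442 reads), 24.5 RPKM in subclone1 (554 reads) and 19.7 RPKM in subclone2 (457 reads), so that subclone1 stood above both other libraries. The ratio to the parent was 1.22 in subclone1 (1.08 to 1.39) and 0.982 in subclone2 (0.860 to 1.12). Subclone2 was 0.805 times subclone1 (0.709 to 0.913). IL1RAP, its accessory chain, was 2.60, 4.15 and 4.31 RPKM (58, 95 and 101 reads), with ratios to the parent of 1.59 (1.14 to 2.25) and 1.65 (1.19 to 2.33). IL1R2, a decoy that lies next to IL1R1, was 9.76, 8.33 and 7.27 RPKM, and no pair of libraries was separable. The agonists were higher in the subclones: IL1A had 12, 40 and 45 reads and IL1B had 34, 69 and 118 reads. IL1B was 1.98-fold above the parent in subclone1 (1.29 to 3.07) and 3.30-fold in subclone2 (2.23 to 4.98), and IL1A 3.25-fold (1.67 to 6.80) and 3.56-fold (1.85 to 7.40).

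IL10RB, the chain shared by the receptors of IL-10, IL-22 and the lambda interferons, lies at chr21:33266358-33310187 on the plus strand (GRCh38). In subclone1 it had the highest ratio to the parent of the 10 genes. Its level was 21.3 RPKM in the parent (185 reads), 38.1 RPKM in subclone1 (340 reads) and 26.1 RPKM in subclone2 (239 reads). Subclone1 stood above both other libraries, with a ratio to the parent of 1.79 (1.49 to 2.15). For subclone2 the ratio to the parent was 1.23, with an interval that began at 1.01, and the ratio to subclone1 was 0.686 (0.579 to 0.812). Exons of IL10RB overlap AP000295.1, a protein-coding gene on the same strand, so the 2 cannot be fully separated. Its neighbours also encode interferon receptor chains. IFNAR2 was 13.4, 17.4 and 24.1 RPKM, highest in subclone2, where its ratio to the parent was 1.80 (1.49 to 2.18), and IFNAR1 was 11.5, 11.8 and 13.9 RPKM.

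The partners of IL10RB differed in level. IL22RA1, the specific chain for IL-22, which acts on epithelia and hepatocytes, was 1.04 RPKM in the parent (14 reads), 4.36 RPKM in subclone1 (60 reads) and 4.18 RPKM in subclone2 (59 reads). The ratio to the parent was 4.17 in subclone1 (2.30 to 8.09), and its interval in subclone2 ran from 2.21 to 7.76. IL10RB mRNA exceeded that of IL22RA1 per length by 20.4-fold in the parent (11.9 to 38.1), 8.75-fold in subclone1 (6.63 to 11.7) and 6.26-fold in subclone2 (4.69 to 8.47). IFNLR1, listed in the files under an older symbol and the partner for lambda interferons, was 1.51, 2.23 and 2.04 RPKM, with no pair of libraries separable. IL20RA had 1 read, in subclone2, and IL10RA was in none of the 3 tables used here.

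Of the 10 genes, 9 had a mean of at least 1 RPKM. None of the 9 was at least 2-fold higher in subclone1 than in the parent, where 4.90% of the 11370 genes were, and 1, IL13RA2, was at least 2-fold lower, against 1.82% of all. For subclone2 over the parent the counts were 0 higher, beside 5.33% of all genes, and 1 lower, again IL13RA2, beside 2.16%. Between the subclones none of the 9 was 2-fold higher in subclone2 or in subclone1, beside 1.42% and 1.39% of all genes. Since these ratios were in view when the genes were picked, nothing is read from the counts. By counting intervals, 4 of the 9 were higher and 3 lower in subclone1 than in the parent, beside 20.4% and 19.4% of all genes. In subclone2 3 were higher and 2 lower, beside 23.1% and 18.3%. Subclone2 was above subclone1 for 1 gene, IL4R, and below it for 3, IL13RA2, IL1R1 and IL10RB, beside 11.9% and 8.75%. The median log2 ratio of the 9 was 0.03 in subclone1 and 0.08 in subclone2 over the parent, close to the 0.00 and 0.04 of all genes, and it was -0.02 for subclone2 over subclone1, beside 0.03. Both comparisons use the same parent library.

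**Figure D2:**
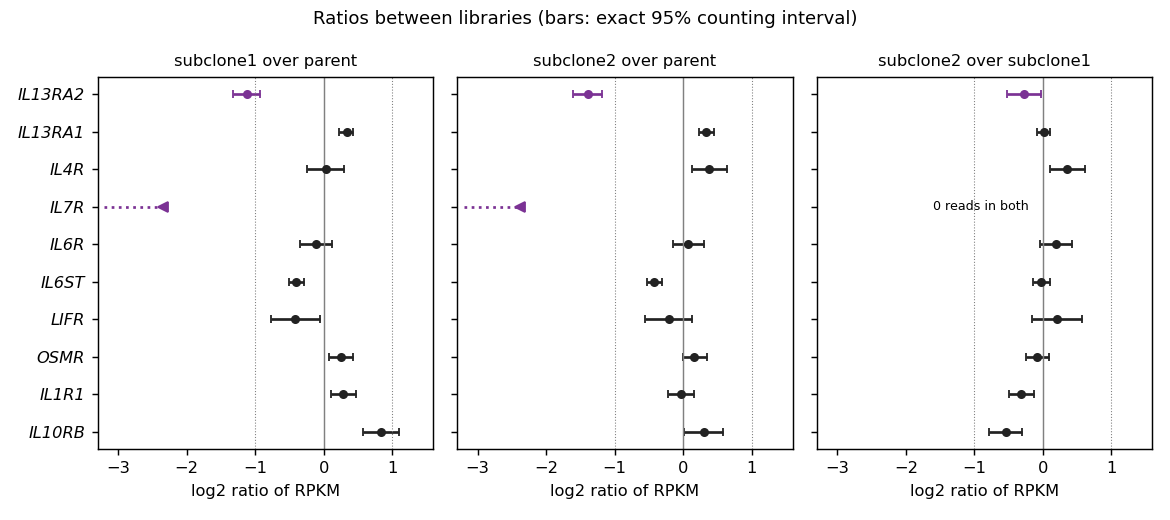
Log2 ratio of RPKM for each receptor gene in the 3 comparisons, with exact 95% counting intervals, dotted lines at 2-fold and, for IL7R, an arrow at the upper end of the interval. IL13RA2 and IL7R lie beyond 2-fold below the parent, and the other 8 genes lie within 2-fold.

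The order of the levels was led by IL13RA2, IL13RA1 and IL6ST in the parent, each separated from the next. IL10RB, IL1R1 and OSMR, at 21.3, 20.1 and 19.8 RPKM, came next and were not separable each from the following one, and neither were IL4R and IL6R. In subclone1 the order was IL13RA1, IL13RA2, IL10RB and IL6ST, each separated from the next, with IL10RB ranked above IL6ST at a ratio of 1.33 to it. In subclone2 IL13RA1 and IL13RA2 led, followed by IL6ST and IL10RB, which were not separable (1.08, 0.940 to 1.25). LIFR was the ninth and IL7R the last in all 3 libraries.

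**Figure D3:**
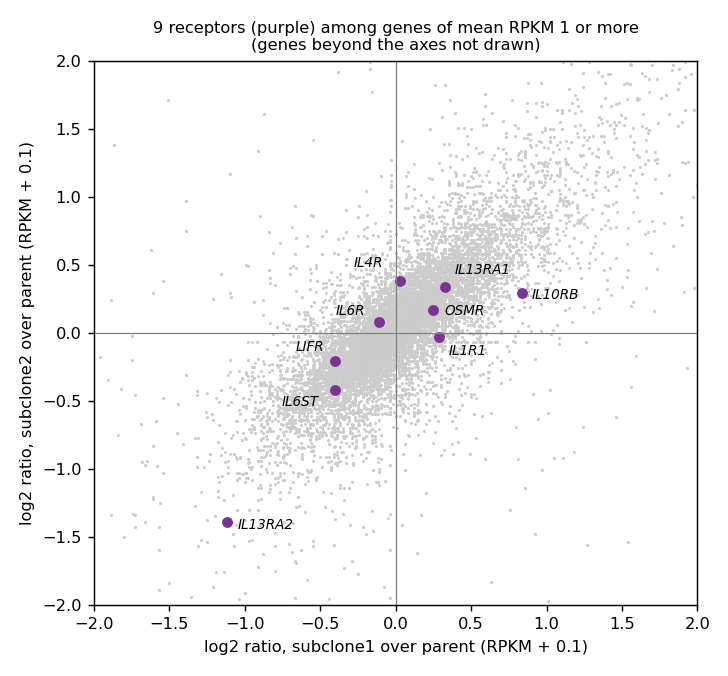
Log2 ratio over the parent in subclone2 against that in subclone1, on the scale of RPKM plus 0.1, for genes with a mean of at least 1 RPKM (grey) and the 9 receptor genes that reached it (purple). Both axes share the parent library, which by itself draws points along the diagonal, and IL13RA2 lies at -1.12 and -1.39 while the other 8 genes lie within 2-fold on each axis.

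The other 49 cytokine receptor genes were counted from lists of partner chains and of the type I, type II, IL-1 and IL-17 families. Of these, 43 were listed in a library and 18 had a mean of at least 1 RPKM. In subclone1 3 of the 18 were at least 2-fold higher than in the parent and 0 lower, beside 4.90% and 1.82% of all genes. In subclone2 4 were higher and 0 lower, beside 5.33% and 2.16%. Between the subclones 0 were higher and 1 was lower in subclone2, beside 1.42% and 1.39%. Their median log2 ratio to the parent was 0.46 in subclone1 and 0.64 in subclone2, beside 0.00 and 0.04 over all genes. IL20RB, a chain for IL-20 and IL-24, had 29, 146 and 62 reads in the parent, subclone1 and subclone2. It was 4.90-fold above the parent in subclone1 (3.27 to 7.58) and 2.03-fold in subclone2 (1.29 to 3.27), and 0.414 times as high in subclone2 as in subclone1 (0.303 to 0.561). EPOR, the erythropoietin receptor, had 15, 43 and 34 reads, with ratios of 2.79 (1.52 to 5.41) and 2.15 (1.14 to 4.25). IL15RA, the specific chain for IL-15, had 24, 44 and 57 reads, with ratios of 1.79 (1.06 to 3.07) and 2.26 (1.38 to 3.80). The most abundant of the 49 was IFNGR1, the ligand-binding chain for interferon gamma, at 90.2 RPKM in the parent and 147 RPKM in each subclone.

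**Figure D4:**
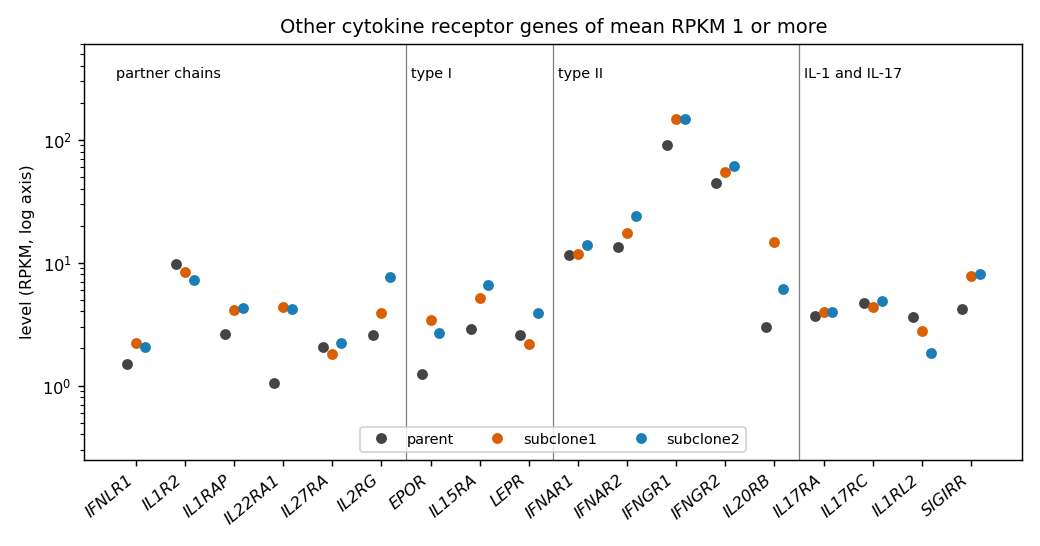
Level in RPKM, on a log axis, of the 18 other cytokine receptor genes with a mean of at least 1 RPKM, 1 point per library. IL22RA1, IL20RB, EPOR and IL2RG show the widest gaps between the parent and a subclone, and IFNGR1 stands highest.

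Of 26 ligand genes of these receptors, 14 were listed and 6 reached 1 RPKM. In subclone1 2 of the 6, IL7 and IL1A, were at least 2-fold higher than in the parent, beside 4.90% of all genes, and in subclone2 3 were, IL1B included, beside 5.33%, with 0 lower in either. IL7 and IL1A, at 0.107 and 0.908 RPKM in the parent, reached a mean of 1 RPKM through the subclones, so the filter favoured their count as higher. Downstream of the receptors, 9 of 11 Janus kinase and STAT genes were listed and all 9 reached 1 RPKM. None of the 9 had a 2-fold difference in any comparison. Of all genes, 4.90% were at least 2-fold higher and 1.82% lower in subclone1 than in the parent, and 5.33% and 2.16% in subclone2. For subclone2 over subclone1 the shares were 1.42% and 1.39%. JAK1, which binds IL4R, gp130 and IL10RA, was 55.8, 70.1 and 68.8 RPKM, and STAT6, the main STAT of IL4R, was 50.4, 60.7 and 64.0 RPKM. These 2 were above the parent by 1.26-fold (1.17 to 1.35) and 1.21-fold (1.10 to 1.32) in subclone1 and by 1.23-fold (1.15 to 1.33) and 1.27-fold (1.17 to 1.39) in subclone2. STAT3, the main STAT of gp130, was 23.9, 23.1 and 26.6 RPKM. None of the 13 adaptor genes of at least 1 RPKM reached 2-fold. Beyond counting error, 4 of the 13 were lower and 2 higher in subclone1 than in the parent. In subclone2 5 were lower and 3 higher. MYD88, the adaptor of the IL-1 receptors, had 406, 225 and 351 reads. Its ratio to the parent was 0.540 in subclone1 (0.456 to 0.637) and 0.821 in subclone2, both lower beyond counting error. Among 12 inhibitors of at least 1 RPKM, SOCS2, a feedback inhibitor, had 114, 18 and 44 reads, with ratios to the parent of 0.154 (0.0880 to 0.254) and 0.367 (0.253 to 0.523). CISH, a related inhibitor of STAT5 signalling, had 66, 50 and 34 reads and was lower in subclone2 (0.489, 0.314 to 0.751). SOCS3, the main feedback inhibitor of gp130, had 72, 138 and 118 reads, with ratios of 1.87 (1.39 to 2.52) and 1.56 (1.15 to 2.12).

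Genes known to respond to these receptors were read from 2 lists. Of the 10 genes listed for IL-13 and for chitinase-like proteins, 3 reached 1 RPKM. CCL26, an eosinophil chemokine induced by IL-4 and IL-13, was 60.6 RPKM in the parent (153 reads), 157 RPKM in subclone1 (408 reads) and 165 RPKM in subclone2 (439 reads). Its ratio to the parent was 2.60 (2.15 to 3.15) and 2.73 (2.26 to 3.30), and a link to the level of IL13RA2 was not tested. The related CCL24 had 5, 1 and 1 reads, with ratios to the parent of 0.195 and 0.190 and intervals that included 1. It reached a mean of 1 RPKM only through the parent, so the filter favoured its count as lower. TGFB1 had ratios of 1.39 (1.26 to 1.54) and 1.22 (1.10 to 1.35). In each subclone 1 of the 3 was 2-fold higher, beside 4.90% and 5.33% of all genes, and 1 lower, beside 1.82% and 2.16%. The ligands IL13 and IL4 were in none of the 3 tables used here. Of 14 acute-phase genes, which gp130 is known to induce in hepatocytes, 8 reached 1 RPKM. In subclone1 6 of these were at least 2-fold higher than in the parent, beside 4.90% of all genes, and in subclone2 5 were higher, beside 5.33%, and 1, HAMP, lower from 3 reads to 1, beside 2.16%. FGA, FGB and FGG, the chains of fibrinogen, had 19, 27 and 1 reads in the parent, 110, 242 and 39 in subclone1 and 80, 96 and 30 in subclone2. SERPINA3 had 8, 29 and 12 reads. SAA1 had 0, 16 and 16 reads, which near-identical copies may share. SAA1 and FGG, at 0 and 0.126 RPKM in the parent, reached a mean of 1 RPKM only through the subclones. The filter thus favoured their count as higher, and nothing is read from the counts of this list. IL6ST was lower in the same libraries, as given above, and a link between it and these genes was not tested.

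The genes whose ratios to the parent were most like those of IL13RA2 were found by the distance between the pairs of log2 ratios, over 2 comparisons that share the parent. They were F2RL2, a thrombin receptor of the PAR family (18.1, 8.61 and 6.73 RPKM, distance 0.065), SLC35F2, a solute carrier (18.6, 8.04 and 7.24 RPKM, 0.089), SQLE, squalene epoxidase of cholesterol synthesis (60.1, 26.1 and 23.6 RPKM, 0.093), LONRF2 (4.29, 1.98 and 1.47 RPKM, 0.096) and CHAC2 (12.1, 5.82 and 4.87 RPKM, 0.122). None of them is a cytokine receptor.

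Along the X chromosome, in RefSeq order, the listed protein-coding genes beside IL13RA2 were HTR2C, a serotonin receptor, and PLS3, an actin-bundling protein. HTR2C had 2.01, 0.954 and 0.709 RPKM (43, 21 and 16 reads) and ratios to the parent of 0.476 (0.268 to 0.819) and 0.353 (0.186 to 0.640). PLS3 had 146, 123 and 115 RPKM and ratios of 0.838 (0.789 to 0.889) and 0.783 (0.737 to 0.831). Both neighbours were thus lower in the subclones, as was IL13RA2. A wider stretch of 5 genes of at least 1 RPKM on each side was chosen after its values were seen. On one side AMMECR1 (0.535 and 0.530), ALG13 (0.591 and 0.529) and HTR2C were lower in both subclones beyond counting error, TMEM164 was lower by less (0.756 and 0.831) and ACSL4 was level with the parent (1.02 and 1.01). Beyond PLS3, WDR44 was higher (1.21 and 1.37), DOCK11 was lower in subclone1 (0.742) and level in subclone2 (1.01), and IL13RA1 was higher. The 377 X-linked genes of at least 1 RPKM had medians of -0.04 and -0.02 on the log2 scale.

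**Figure D5:**
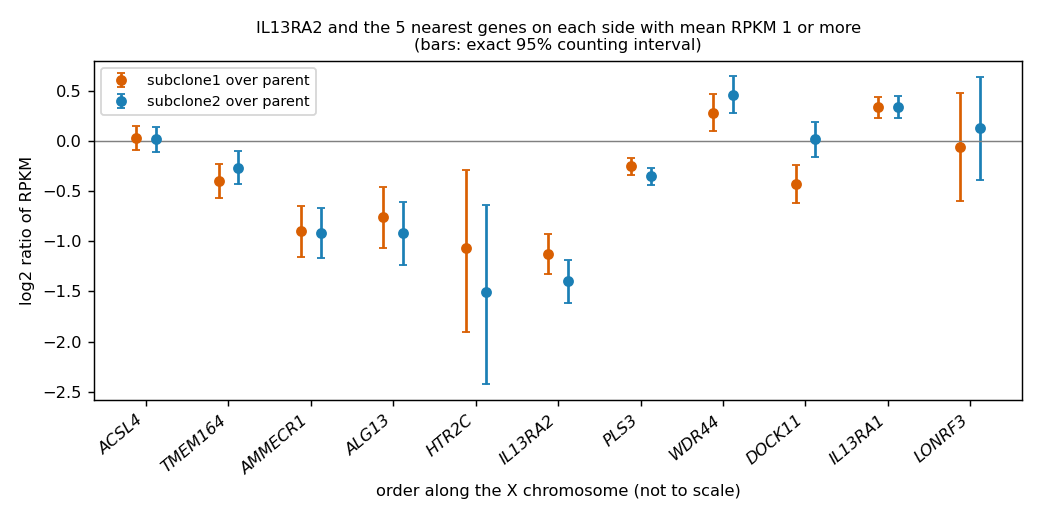
Log2 ratio of RPKM over the parent for IL13RA2 and the 5 nearest genes of at least 1 RPKM on each side, in their order along the X chromosome and not to scale, with exact 95% counting intervals. The genes from TMEM164 to PLS3 lie below 0 in both subclones, and IL13RA1 lies above it.

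The genes beside the other receptors are given by their levels in the parent, subclone1 and subclone2. Beside IL4R, NSMCE1 was 23.1, 23.3 and 19.4 RPKM and IL21R had at most 1 read. Beside IL6R, ATP8B2 was 17.5, 14.7 and 11.9 RPKM and UBE2Q1 101, 109 and 107 RPKM. Beside IL7R, SPEF2 had 20, 15 and 15 reads, so that it was listed in the subclones where IL7R was not, and UGT3A1 had at most 1 read. EGFLAM beside LIFR was 2.14, 1.46 and 1.38 RPKM, and RICTOR beside OSMR was 7.15, 6.37 and 6.21 RPKM. Beside IL6ST, IL31RA and ANKRD55 had at most 10 reads. IL1RL2, which follows IL1R1 and binds IL-36, was 3.63, 2.76 and 1.83 RPKM, lower in subclone2 than in the parent (0.505, 0.263 to 0.936). On the far side of IL13RA1, ZCCHC12 had at most 2 reads.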

How the data were processed

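Cell lines were cultured, RNA was extracted with Trizol and libraries came from the Illumina TruSeq protocol. The authors deposited RPKM per gene and library, with Entrez numbers and symbols. The submitters' processing notes name hg19, while the aligner, counter and annotation are not given in the sources used here. Genes missing from a table were set to 0. Ratios were log2 of (RPKM + 0.1), and genes with a mean of at least 1 RPKM (11370 of 16149) formed the background. The mean was taken over all libraries, so a gene could pass through the library where it was high. Whole reads were recovered from the steps of the RPKM and from the order of the rows, which fall with the read count. The resolved genes held 99.7% of each total, 50 genes stayed unresolved, and the method was tested on simulated data. Intervals were exact Poisson for levels and Clopper-Pearson for ratios, at 95%, and the limit of 0 reads was 3 reads. No test was run, as each group had 1 library. The 10 genes and all lists were chosen with earlier results of these data known. Named were the 10 genes, all partner chains, genes of each list at least 2-fold apart in any comparison and at least 1 RPKM (at most 6 a list), the 5 nearest patterns to IL13RA2 and the neighbours. A few further list members are given for their roles and were chosen after their values were seen. Places came from GENCODE on GRCh38, which is not the build of the files. Alternatives were pseudocounts of 0.01 and 1, equal RPKM sums, median centring, division by the upper quartile, ACTB or GAPDH, no filter, a mean of at least 5 RPKM, and 1.5-fold in place of 2-fold. Python 3.11.15, numpy 2.4.6, pandas 2.3.3, scipy 1.17.1 and matplotlib 3.10.9 were used.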

Additional observations from a re-analysis of the deposited data

Results flagged for a closer look

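IL6R and IL1R1 were marked because their ratios to the parent pointed in opposite directions in the subclones, each with 1 library, and the difference was not tested between cell lines. The log2 ratio of IL6R to the parent was -0.11 in subclone1 and 0.08 in subclone2, both within counting error. For IL1R1 it was 0.29 in subclone1, beyond counting error, and -0.03 in subclone2, within it. Under the alternative scalings and pseudocounts the last value ranged from -0.06 to 0.04.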

How the results depend on the processing

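IL13RA2 kept its direction under all 7 alternative scalings and pseudocounts, with log2 ratios from -1.26 to -1.10 in subclone1 over the parent, from -1.43 to -1.33 in subclone2 over the parent, and from -0.30 to -0.15 between the subclones. Of 210 values of the 10 genes under these alternatives, 8 moved outside the counting interval of the reported ratio. The other 202 stayed within it or had no interval. Without an interval were the 7 values of IL7R between the subclones, where both had 0 reads. Of the values with an interval that left out 1, 0 changed sign. The moved values were those of IL7R with a pseudocount of 1 (-1.79 in each subclone over the parent) and of IL13RA1 and IL6ST after division by ACTB or GAPDH. With no filter on low values, 2 of the 10 genes were at least 2-fold lower in each subclone than in the parent, as IL7R then counts beside IL13RA2. At 1.5-fold, 1 gene, IL10RB, was higher in subclone1 than in the parent. Over all genes, the 557 higher and 207 lower in subclone1 than in the parent became 1523 and 884 with no filter, 233 and 71 at a mean of at least 5 RPKM, 347 and 117 with a pseudocount of 1, 1317 and 848 at 1.5-fold and 449 and 328 after division by ACTB. For subclone2 over subclone1, 161 and 158 became 216 and 122 after division by ACTB and 211 and 126 after division by GAPDH. Among the 49 other receptor genes, the 3 and 4 that were higher in subclone1 and subclone2 than in the parent became 9 and 8 with no filter, 1 and 0 at a mean of at least 5 RPKM and 7 and 9 at 1.5-fold. No paired analysis was possible because every group is a single library, which also leaves none to drop. Depth limits IL7R and the partner chains with few reads, and the lack of a second library per cell line limits every comparison.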
